A study of Mus musculus with 4 samples.

Results

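The CXC chemokine ligand genes Cxcl1, Cxcl2, Cxcl3, Cxcl5, Cxcl9, Cxcl10, Cxcl12, Cxcl13, Cxcl14 and Cxcl16 were followed in macrophages sorted from mouse tumours. They were taken by name and not by a cut on their values, though with earlier results of these data known. Each matched 1 gene identifier, and they make up 10 of the 39179 identifiers counted. The macrophages came from tumours under the skin of FVB mice, grown after injection of either MycCaP, a prostate cancer line from a MYC-transgenic mouse, or MycCaP-BMP4 cells, the same line overexpressing the secreted bone morphogenetic protein BMP4. All 4 samples carry the label CD45+, CD11b+, GR1- and F4/80+, with 2 libraries in each of the 2 groups, though F4/80 stands in the titles of the MycCaP-BMP4 samples alone. The labels do not state the age of the mice, the promoter that drives BMP4, whether the BMP4 line is a clone, or whether tumours were pooled. The p-values therefore cover the library-to-library spread seen here and no more, and that spread may be technical.

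CXC chemokines are small secreted proteins named for a pair of cysteines with a single residue between them, and they steer leukocytes through G protein-coupled receptors. Cxcl1, Cxcl2, Cxcl3 and Cxcl5 carry a glutamate-leucine-arginine (ELR) motif, bind CXCR2 and draw neutrophils, and macrophages make them after NF-kB activation by bacterial products or interleukin-1. Cxcl9 and Cxcl10 bind CXCR3 on activated T and NK cells and are induced by interferons, Cxcl9 chiefly by interferon-gamma. Cxcl12, Cxcl13 and Cxcl14 are expressed in many resting tissues: Cxcl12 binds CXCR4 and ACKR3, Cxcl13 guides B cells through CXCR5, and Cxcl14 is mostly an epithelial product. Cxcl16 is made as a transmembrane protein, binds CXCR6, and is released by the proteases ADAM10 and ADAM17.

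The libraries held 23058263 to 24967143 counts in genes, and a floor of 3 counts equalled 0.12 to 0.13 CPM (gene counts scaled to a common library total), a limit that covers counting error only. Bmp4, the overexpressed gene, had 0.175 and 0.0422 CPM in MycCaP and 511 and 182 CPM in MycCaP-BMP4, with replicate 1 given first here and throughout. Genes of the sort markers CD45, CD11b and F4/80 (Ptprc, Itgam and Adgre1) were detected in every library, at 126 CPM or more, while of the GR1 antigens Ly6g had 0 counts in all 4 and Ly6c2 had 109 and 104 counts in MycCaP and 49 and 37 in MycCaP-BMP4. MycCaP-BMP4 replicate 1 stood apart: the median of 15 pan-macrophage genes was at 19.5% of the MycCaP mean there and at 74.2% in MycCaP-BMP4 replicate 2, so each result below is given per library. In such bulk samples, fewer macrophages and less RNA per macrophage cannot be told apart. The summed CPM of 12 tumour epithelium genes was 112 and 145 in MycCaP and 786 and 310.2 in MycCaP-BMP4, with Krt5 at 0 counts, and its part in the results below was not tested.

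Against that background, 7 of the 10 ligands (Cxcl1, Cxcl2, Cxcl3, Cxcl9, Cxcl10, Cxcl14 and Cxcl16) had both MycCaP-BMP4 libraries below both of MycCaP, where 29.7% of the 14075 genes tested did. Cxcl5 lay higher in both, where 28.9% of genes did, and Cxcl12 and Cxcl13 overlapped between groups. All 10 passed the filter on low counts, and the median log2 fold change (MycCaP-BMP4 over MycCaP) was -1.01, beside -0.03 for all genes tested. The 15 pan-macrophage genes had a median of -1.09, and 12 of them were lower in both MycCaP-BMP4 libraries. With libraries scaled on those genes, the median of the ligands was 0.004, beside 1.65 for all genes. All 7 ligands named above were lowest in MycCaP-BMP4 replicate 1. No member passed the threshold of 0.05 by edgeR's quasi-likelihood test with Benjamini-Hochberg adjustment over all genes, where 0% of all genes did either. Even Bmp4, the overexpressed gene, did not pass (log2 fold change 11.6, edgeR adjusted p = 0.0729), so a gene that fails this test may still differ. At an unadjusted p under 0.05 the test had 3 members, all lower (Cxcl9, Cxcl10 and Cxcl14), beside 6.76% of all genes lower and 12.3% higher at that level. With 2 libraries against 2, an exact permutation test of a single value cannot go below p = 0.333.

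Other ways of fitting the counts moved these calls. DESeq2 called Cxcl9 alone, as lower, beside 3.01% of genes called lower and 6.83% higher, and edgeR without a filter on low counts also called Cxcl9 alone, beside 1.49% and 3.59%. No member was called by limma-voom or with library size alone, where 0.128% of genes were lower and 0.334% higher. None was called with scaling on the pan-macrophage genes (0.163% lower and 8.07% higher) or with the replicate number as a block (0% lower and 0.0142% higher). With the numbers crossed, a pairing added after the data were seen, Cxcl9 was called, beside 1.36% of genes lower and 3.53% higher. With 1 library left out, the median log2 fold change of the members was -0.95 without MycCaP replicate 1 and -1.07 without MycCaP replicate 2. It was -0.28 without MycCaP-BMP4 replicate 1 and -2.35 without MycCaP-BMP4 replicate 2. The median of all genes in these fits ranged from -0.03 to 0.01. Each fit without a MycCaP-BMP4 library takes its spread from the MycCaP pair alone and assumes that the lone library varies like it, while the MycCaP-BMP4 pair differed more (chi-square per degree of freedom 303 against 46.4), so such p-values may be too small.

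**Figure D1:**
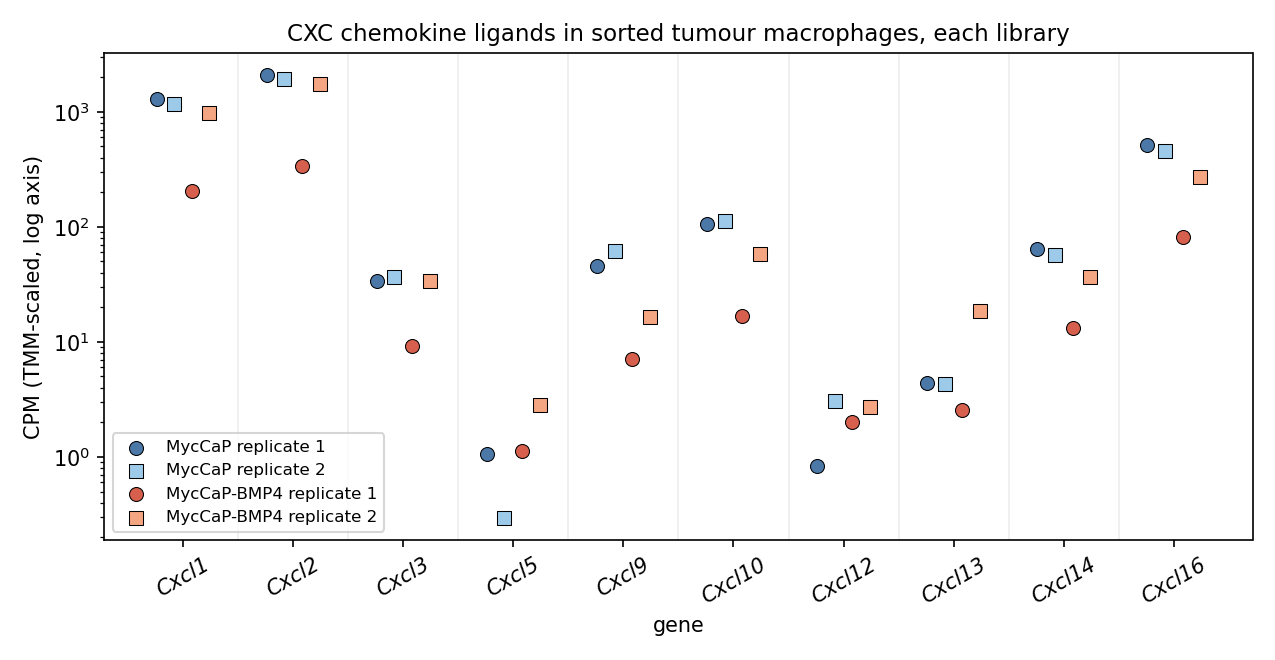
Level of each CXC ligand gene in CPM on a log axis, with 1 point per library, blue for MycCaP and red for MycCaP-BMP4. Cxcl1 and Cxcl2 are the highest in every library, and MycCaP-BMP4 replicate 1 is the lowest point for 8 of the 10 genes.

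Levels were compared between genes per length, as RPKM (CPM per kilobase of the longest protein-coding transcript). Cxcl1 and Cxcl2 led in all 4 libraries: Cxcl1 had 1348 and 1222 RPKM in MycCaP and 214 and 1016 RPKM in MycCaP-BMP4, and Cxcl2 had 1119 and 1042 RPKM against 183 and 932 RPKM. Cxcl16 and Cxcl10 came next, in that order, in every library. Cxcl14, Cxcl3 and Cxcl9 followed between 2.44 and 35.8 RPKM in an order that differed between libraries, Cxcl13 lay below them in 3 libraries and above Cxcl9 in MycCaP-BMP4 replicate 2, and Cxcl5 and Cxcl12 stayed under 2 RPKM. The order of Cxcl1 and Cxcl2 depends on the length used, since with all annotated exons of each gene Cxcl2 came first in every library. Cxcl1, Cxcl2 and Cxcl3 together made up 88.5% and 88.2% of the RPKM of the 10 ligands in MycCaP, and 88.0% and 91.4% in MycCaP-BMP4. The same 4 genes thus led in every library, while the sum over the 10 ligands was 2826 and 2608 RPKM in MycCaP and 461 and 2169 RPKM in MycCaP-BMP4.

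The neutrophil-attracting ligands Cxcl1 (chromosome 5, 90891241 to 90893115 on GRCm38), Cxcl2 (90903871 to 90905938), Cxcl3 (90786103 to 90789600) and Cxcl5 (90759360 to 90761624) are protein-coding genes on the plus strand of 1 cluster. The stretches just before the starts of Cxcl1, Cxcl2 and Cxcl3 are shown because these abundant or neighbouring ligands share a motif there. The bases are from RefSeq on GRCm38.p6, plus strand, at chr5:90891125-90891244, chr5:90903779-90903898 and chr5:90785981-90786100, 5′ to 3′ up to the base before the RefSeq start, with capitals marking the NF-kB motif GGAATTTCC.
Cxcl1: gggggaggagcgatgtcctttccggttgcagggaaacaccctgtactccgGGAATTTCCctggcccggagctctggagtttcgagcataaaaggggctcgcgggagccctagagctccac
Cxcl2: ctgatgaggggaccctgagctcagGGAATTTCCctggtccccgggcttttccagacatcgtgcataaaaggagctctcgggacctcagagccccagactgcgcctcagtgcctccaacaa
Cxcl3: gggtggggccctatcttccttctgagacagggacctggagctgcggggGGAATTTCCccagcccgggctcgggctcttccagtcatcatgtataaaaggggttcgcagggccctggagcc
The motif begins at positions -70, -96 and -72 from the start of Cxcl1, Cxcl2 and Cxcl3. Searched on both strands in windows from 250 bases before to 50 after the start, it stood in 4 of the 8 member genes with a window (these 3 and Cxcl10), and in 0.317% of all 32851 windows. A match of letters is a description and not a measured binding site.

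Cxcl1 had 1284 and 1165 CPM in MycCaP and 204 and 969 CPM in MycCaP-BMP4. Cxcl2 had 2081 and 1937 CPM against 340.1 and 1732 CPM. Both were far lower in MycCaP-BMP4 replicate 1 and only slightly lower in replicate 2, with no overlap between groups. Divided by the macrophage level (the median of the pan-macrophage genes in that library), Cxcl1 was at 85.4% and 107% of the MycCaP mean. Cxcl2 was at 86.8% and 116% on that scale. The group means of Cxcl2 were 2009 ± 102 CPM (SD, n = 2) and 1036 ± 984 CPM (SD, n = 2), so the difference was about as large as the spread of the second group. The log2 fold changes were -1.06 ± 0.74 (SE) for Cxcl1 and -0.96 ± 0.78 for Cxcl2, with edgeR adjusted p of 0.472 and 0.534. Cxcl3, the third CXCR2 ligand of the set, had 34.1 and 36.4 CPM in MycCaP and 9.12 and 33.7 CPM in MycCaP-BMP4. Its replicate 2 value was almost that of MycCaP, and under scaling by library size alone its groups overlapped. Divided by the macrophage level, Cxcl3 was at 133% and 129% of the MycCaP mean.

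The fold changes of Cxcl1, Cxcl2 and Cxcl3 rested on MycCaP-BMP4 replicate 1. Without it they were -0.34, -0.22 and -0.07 and none was called. Without MycCaP-BMP4 replicate 2 they were -2.56, -2.53 and -1.92, with edgeR adjusted p of 0.000161, 0.000163 and 0.000464, in a fit where the lone MycCaP-BMP4 library is assumed to vary like the MycCaP pair and where 20.2% of all genes were called lower. The ratio of Cxcl2 to Cxcl1 in RPKM was steady, at 0.831 and 0.852 in MycCaP and 0.856 and 0.917 in MycCaP-BMP4. By root mean square difference of centred log2 CPM over the 4 libraries, Cxcl1 and Cxcl2 were each other's nearest member (0.0527), and Cxcl2 was the nearest to Cxcl3 (0.265). Cxcl2 and Cxcl3 share 7.00% and 4.62% of their 35-base transcript windows with other CXC genes, the other 8 members none, so few of their reads could be split between genes.

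Cxcl5, which also binds CXCR2, had few counts, with 24 and 7 counts in MycCaP and 31 and 64 counts in MycCaP-BMP4. These equal 1.05 and 0.295 CPM against 1.12 and 2.81 CPM. Cxcl5 was the 1 member higher in both MycCaP-BMP4 libraries, by 7 counts between the nearest libraries of the groups, and its log2 fold change of 1.54 ± 0.89 had an edgeR adjusted p of 0.389. Neutrophils, the main cells that carry CXCR2, were checked with 12 marker genes. Their summed CPM was 75.7 and 72.9 in MycCaP and 54.2 and 72.0 in MycCaP-BMP4, led by Csf3r, with Ly6g at 0. S100a8 and S100a9 went apart from that sum: S100a8 had 3.76 and 3.50 CPM against 11.6 and 1.67 CPM, and S100a9 had 5.99 and 7.34 CPM against 21.6 and 2.46 CPM. Both were highest in MycCaP-BMP4 replicate 1 and lowest in replicate 2. Other genes of the list went otherwise. Retnlg had 3.80 and 2.87 CPM against 2.39 and 14.97 CPM, and Mpo was also highest in replicate 2. Mmp8 and Camp were lower in both MycCaP-BMP4 libraries. Csf3r, most of the sum, had 53.4 and 53.3 CPM against 14.4 and 47.5 CPM. Like the macrophage level, it was lowest in replicate 1, and which cells it came from was not tested. The part of neutrophils in the ligand values was not tested.

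NF-kB response genes, which share an inducer with the ELR ligands, were compared from a list of 20. All 20 were tested and none passed. Of these 11 were below MycCaP in each MycCaP-BMP4 library and 0 above, where 29.7% of all genes were below and 28.9% above, and the median log2 fold change was -0.82. Relative to MycCaP, their median log2 CPM was -1.68 and -0.20 in the MycCaP-BMP4 libraries. The 4 ELR ligands had medians of -2.25 and -0.14, with Cxcl5 at 0.88 and 2.15 above the others, and the pan-macrophage genes -2.35 and -0.43. The members with the smallest p were the chemokine gene Ccl4, the adhesion molecule gene Icam1, and the cytokine genes Il1b and Tnf. Il1b had 2597 and 2132 CPM in MycCaP and 352 and 1223 CPM in MycCaP-BMP4, and Tnf had 472 and 431 CPM against 42.8 and 239.7 CPM. Both were lower in both libraries, also in replicate 2, where Cxcl1, Cxcl2 and Cxcl3 were at 79.1%, 86.2% and 95.7% of the MycCaP mean. Il1b and Tnf were named for their small p, and the list was mixed in that library. Tnfaip3 and Ier3 were at 89.3% and 89.5% of the MycCaP mean there, and Traf1 at 202%.

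**Figure D2:**
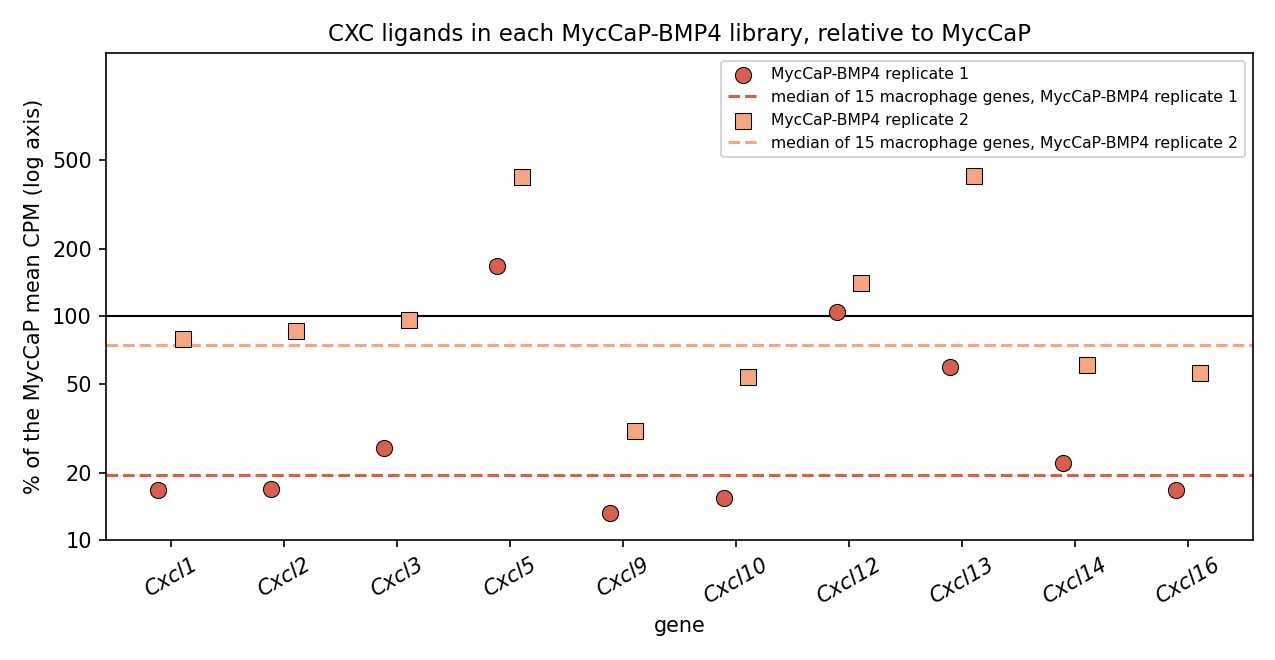
Each CXC ligand gene in the MycCaP-BMP4 libraries as a percentage of the MycCaP mean CPM, on a log axis. The dashed lines give the median of 15 pan-macrophage genes, 19.5% in replicate 1 and 74.2% in replicate 2, and Cxcl9 lies furthest below them in both libraries.

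The interferon-induced ligands Cxcl9 (chromosome 5, 92321347 to 92328079) and Cxcl10 (92346638 to 92348889), both protein-coding on the minus strand, attract CXCR3-bearing lymphocytes. Cxcl9 had 46.0 and 61.1 CPM in MycCaP and 7.06 and 16.5 CPM in MycCaP-BMP4. Cxcl10 had 106 and 111 CPM against 16.7 and 58.1 CPM. The groups did not overlap for either gene, and in replicate 2 they were at 30.7% and 53.5% of the MycCaP mean, where Cxcl1 and Cxcl2 were at 79.1% and 86.2%. Whether the 2 pairs of genes differ in this was not tested. The log2 fold change of Cxcl9 was -2.19 ± 0.46, the lowest of the 10 members (edgeR adjusted p = 0.141, unadjusted p = 0.00367), and that of Cxcl10 was -1.54 ± 0.58 (adjusted p = 0.242). DESeq2 called Cxcl9 (adjusted p = 0.000525), and so did edgeR without a filter on low counts (adjusted p = 0.0037). Over the other scalings, filters and tests, the block and each left-out library, the adjusted p of Cxcl9 ranged from 0.000141 to 0.885.

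Leaving out MycCaP-BMP4 replicate 1, the library with the lower macrophage level, gave log2 fold changes of -1.70 for Cxcl9 and -0.90 for Cxcl10, with edgeR adjusted p of 0.00274 and 0.0341, where 2.63% of genes were called lower and the spread is that of the MycCaP pair alone. Leaving out replicate 2 gave -2.90 and -2.67, both called (adjusted p = 0.000141 and 0.000108) with the same assumption. Divided by the macrophage level of their library, Cxcl9 was at 67.6% and 41.4% of the MycCaP mean and Cxcl10 at 79.0% and 72.2%. Aif1, the lowest of the 15 pan-macrophage genes on that scale, was at 69.5% and 50.01%. Cxcl9 thus lay below all of these genes in both libraries. Cxcl10 lay within their spread, as did Cxcl16 at 85.6% and 75.3%. With libraries scaled on the pan-macrophage genes, which moved the all-gene median on the log2 scale from -0.03 to 1.65, Cxcl9 had -0.88 and Cxcl10 had -0.40, and both were still lower in both MycCaP-BMP4 libraries. Under that scaling 3.86% of all genes were lower in both, and of the members Cxcl9, Cxcl10 and Cxcl16 were.

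The stretch before Cxcl10 is shown because this ligand is known as a target of both interferon and NF-kB signalling. It lies at chr5:92348890-92349119 on GRCm38.p6 (RefSeq, minus strand, 5′ to 3′), and capitals mark, in order, the interferon-stimulated response element GAAANNGAA, the wider NF-kB motif GGANTTNCC in 2 places and the AP-1 motif TGANTCA.
Cxcl10: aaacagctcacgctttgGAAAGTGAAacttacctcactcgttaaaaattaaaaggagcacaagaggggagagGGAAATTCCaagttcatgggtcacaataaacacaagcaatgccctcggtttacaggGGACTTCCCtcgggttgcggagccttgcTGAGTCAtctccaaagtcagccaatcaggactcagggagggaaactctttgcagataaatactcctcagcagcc
These begin at positions -213, -158, -102 and -74, and do not overlap. The match at -158 is on the other strand and is the narrower NF-kB form as well. Of all windows, 8.56% held GAAANNGAA, 3.95% held GGANTTNCC, which includes the narrower form, and 7.81% held TGANTCA. The window of Cxcl9 held GAAANNGAA at position -175 and TGANTCA at position 31, after the start, and no NF-kB form, which says only that those letters are not in this window.

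Interferon-gamma signalling and response genes, which include the inducer of Cxcl9, were compared from a list of 17, of which 16 were tested (Gbp5 is not analysed here) and none passed. Of the list, 13 were below MycCaP in each MycCaP-BMP4 library and 1 (Ido1) above, where 29.7% and 28.9% of all genes were, and the median log2 fold change was -1.32. Ifng itself, made by T and NK cells, had 41 and 45 counts in the MycCaP libraries and 0 and 1 counts in the MycCaP-BMP4 libraries, and its edgeR adjusted p was 0.124. The response genes Gbp3 and Tap1 were also among those with the smallest p, Gbp3 with 123 and 109 CPM against 16.9 and 39.8 CPM and Tap1 with 173 and 149 CPM against 22.8 and 57.6 CPM. Ido1, a tryptophan-degrading enzyme gene, had 0.131 and 0.295 CPM against 2.57 and 1.45 CPM. On the log2 scale the median of the list relative to MycCaP was -2.46 in replicate 1 and -0.79 in replicate 2. That of Cxcl9 and Cxcl10 was -2.79 and -1.29.

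Transcripts of T and NK cells, which answer these ligands, lay lower as well for most genes examined, and none passed the test. Cxcr3, the receptor of Cxcl9 and Cxcl10, had 1.88 and 3.33 CPM in MycCaP and 0.253 and 0.922 CPM in MycCaP-BMP4, a log2 fold change of -2.16 ± 0.83 (edgeR adjusted p = 0.25). The summed CPM of 12 T and NK cell genes was 85.7 and 79.3 against 17.3 and 48.1, of which Cd4 and Lck were the highest, and 10 of 12 were lower in both MycCaP-BMP4 libraries, as were 29.7% of all genes. Cd4 is also expressed by macrophages and was at 36.0 CPM in MycCaP-BMP4 replicate 2. The median log2 differences of the list were -2.83 and -2.47, and the part of these cells in the Cxcl9 and Cxcl10 values was not tested. Cxcl11, the other CXCR3 ligand and annotated as a polymorphic pseudogene in this reference, had 6.69 and 8.56 CPM against 0.615 and 2.24 CPM (log2 fold change -2.42 ± 0.71, edgeR adjusted p = 0.181).

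**Figure D3:**
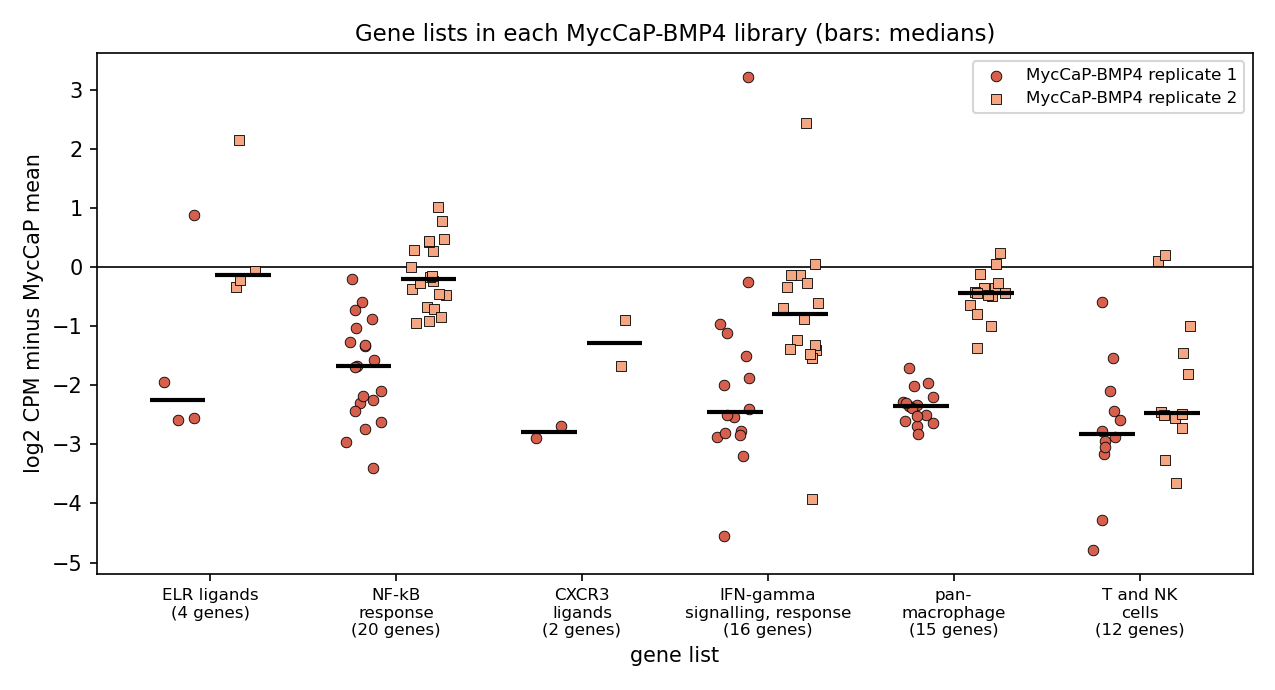
Difference of each tested gene from its MycCaP mean in log2 CPM, for the ELR ligands, the CXCR3 ligands and the lists described beside them, with 1 point per gene and a bar at the median. In MycCaP-BMP4 replicate 2 3 of the 4 ELR ligands lie between -0.34 and -0.06 and Cxcl5 at 2.15, the CXCR3 ligands have a median of -1.29 and the pan-macrophage genes one of -0.43.

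Cxcl16 (chromosome 11, 70453983 to 70459984, protein-coding, minus strand) was the most abundant member outside the ELR set. It had 516 and 456 CPM in MycCaP and 81.1 and 271 CPM in MycCaP-BMP4. Both MycCaP-BMP4 libraries were below both MycCaP libraries, replicate 2 at 55.8% of the MycCaP mean. The log2 fold change was -1.46 ± 0.60 with an edgeR adjusted p of 0.268, and -0.84 without MycCaP-BMP4 replicate 1 (adjusted p = 0.0593) and -2.56 without replicate 2 (adjusted p = 0.000146). Over the 4 libraries Cxcl16 and Cxcl10 were each other's nearest member (root mean square difference 0.101 in log2). The gene overlaps Zmynd15 on the other strand by 552 bases, and Zmynd15 had 1489 and 1444 counts in MycCaP and 275 and 714 counts in MycCaP-BMP4, a ratio of Cxcl16 to Zmynd15 between 7.78 and 8.99 in RPKM in all libraries. The strand setting of the counting is not stated, so the 2 genes are uncertain where they overlap. Cxcl10 likewise lies within Art3 on the other strand, which had 7 to 85 counts.

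The receptor and a protease of CXCL16 lay on opposite sides of MycCaP. Cxcr6, its receptor on T and NK cells, had 3.32 and 2.87 CPM in MycCaP and 0.217 and 0.571 CPM in MycCaP-BMP4 (log2 fold change -2.97 ± 0.73, edgeR adjusted p = 0.152). Adam10, which cleaves CXCL16 from the cell surface, had 265 and 318 CPM against 869.9 and 541 CPM (1.27 ± 0.40, adjusted p = 0.195). Adam10 was thus higher in both MycCaP-BMP4 libraries, most in replicate 1, where the summed CPM of the tumour epithelium genes was also highest, and their part in this was not tested. The ratio of Adam10 to Cxcl16 in RPKM was 0.302 and 0.410 in MycCaP and 6.31 and 1.17 in MycCaP-BMP4. Adam17, the other sheddase, overlapped between groups, with 263 and 251 CPM against 139 and 262 CPM.

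Cxcl14 (chromosome 13, 56288643 to 56296551, protein-coding, minus strand), better known from epithelium, was detected in all libraries. It had 64.2 and 56.5 CPM in MycCaP and 13.3 and 36.6 CPM in MycCaP-BMP4. It was lower in both MycCaP-BMP4 libraries, and lowest in replicate 1. Of the tumour epithelium genes, Cldn3 was highest in that library, Cdh1 was lowest there (0.326 CPM), and Epcam was at 0 counts. Their part in the Cxcl14 values was not tested. Divided by the macrophage level, Cxcl14 was at 113% and 81.7% of the MycCaP mean. The log2 fold change was -1.28 ± 0.49 (edgeR adjusted p = 0.249). Without MycCaP-BMP4 replicate 1 it was -0.72 (adjusted p = 0.0825), and without replicate 2 -2.16 (adjusted p = 0.000206). Its stretch before the start, chr13:56296552-56296781 (RefSeq, GRCm38.p6, minus strand, 5′ to 3′), is shown because its window holds matches to both interferon motifs, with capitals marking TTCNNNGAA, the gamma-activated sequence bound by STAT factors, and then GAAANNGAA.
Cxcl14: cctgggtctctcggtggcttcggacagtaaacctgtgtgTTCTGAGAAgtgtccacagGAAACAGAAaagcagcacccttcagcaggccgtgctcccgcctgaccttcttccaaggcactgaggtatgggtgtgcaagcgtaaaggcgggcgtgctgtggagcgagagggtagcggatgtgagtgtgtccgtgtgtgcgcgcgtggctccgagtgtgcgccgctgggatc
They begin at positions -191 and -172, do not overlap, and TTCNNNGAA was found in 8.3% of all windows.

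Cxcl13 (chromosome 5, 95956951 to 95961068, protein-coding, plus strand), the B cell attractant, had 4.37 and 4.30 CPM in MycCaP and 2.57 and 18.4 CPM in MycCaP-BMP4. The high value was that of MycCaP-BMP4 replicate 2 alone, at 419 counts against 71 to 102 in the other libraries, and replicate 1 was below both MycCaP libraries. The group means were 4.34 ± 0.05 CPM (SD, n = 2) and 10.5 ± 11.2 CPM (SD, n = 2). The log2 fold change was 1.27 ± 0.88 (edgeR adjusted p = 0.468). Without MycCaP-BMP4 replicate 1 it was 2.08 (adjusted p = 0.00277, where 4.48% of genes were called higher), and without replicate 2 it turned to -0.73 (adjusted p = 0.28). Its receptor gene Cxcr5 had 0.350 and 1.18 CPM against 0.687 and 0.790 CPM. The 7 B and plasma cell genes together had 28.3 and 31.3 CPM against 9.26 and 15.1, led by Cd79b and Jchain. Their part in the Cxcl13 values was not tested.

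Cxcl12 (chromosome 6, 117168535 to 117181367, protein-coding, plus strand), typically a product of stromal and endothelial cells, was scarce. It had 0.831 and 3.04 CPM in MycCaP and 2.03 and 2.72 CPM in MycCaP-BMP4, from 19 to 72 counts. The groups overlapped, the log2 fold change was 0.29 ± 0.76 (edgeR adjusted p = 0.853), and it was -0.37 without MycCaP replicate 1. Stromal genes had a similar spread within MycCaP: 10 fibroblast genes, led by Postn and Col1a1, summed to 247 and 601 CPM in MycCaP and 477 and 389 CPM in MycCaP-BMP4. Their part in the Cxcl12 values was not tested, nor that of 10 endothelial genes, led by Pecam1 and Cdh5, at 71.4 and 114 CPM against 64.3 and 40.3 CPM.

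Both receptors of CXCL12 were detected, 1 lower and 1 higher in both MycCaP-BMP4 libraries. Cxcr4, the signalling receptor, had 450.1 and 413 CPM in MycCaP and 77.9 and 314 CPM in MycCaP-BMP4 (log2 fold change -1.14 ± 0.66, edgeR adjusted p = 0.389). Ackr3, a scavenger receptor that removes CXCL12 and CXCL11, had 9.79 and 11.6 CPM against 49.8 and 31.2 CPM (1.92 ± 0.34, adjusted p = 0.124). Of the 8 receptor genes, 5 passed the filter on low counts and none was called, with 3 lower in both MycCaP-BMP4 libraries (Cxcr3, Cxcr4 and Cxcr6) and Ackr3 higher, where 29.7% of all genes were lower and 28.9% higher. Cxcr2, the receptor of the abundant ELR ligands, had 7 and 7 counts in MycCaP and 36 and 9 counts in MycCaP-BMP4, and was not tested. Cxcr1 had 0 counts in all 4 libraries and Ackr1 at most 1.

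**Figure D4:**
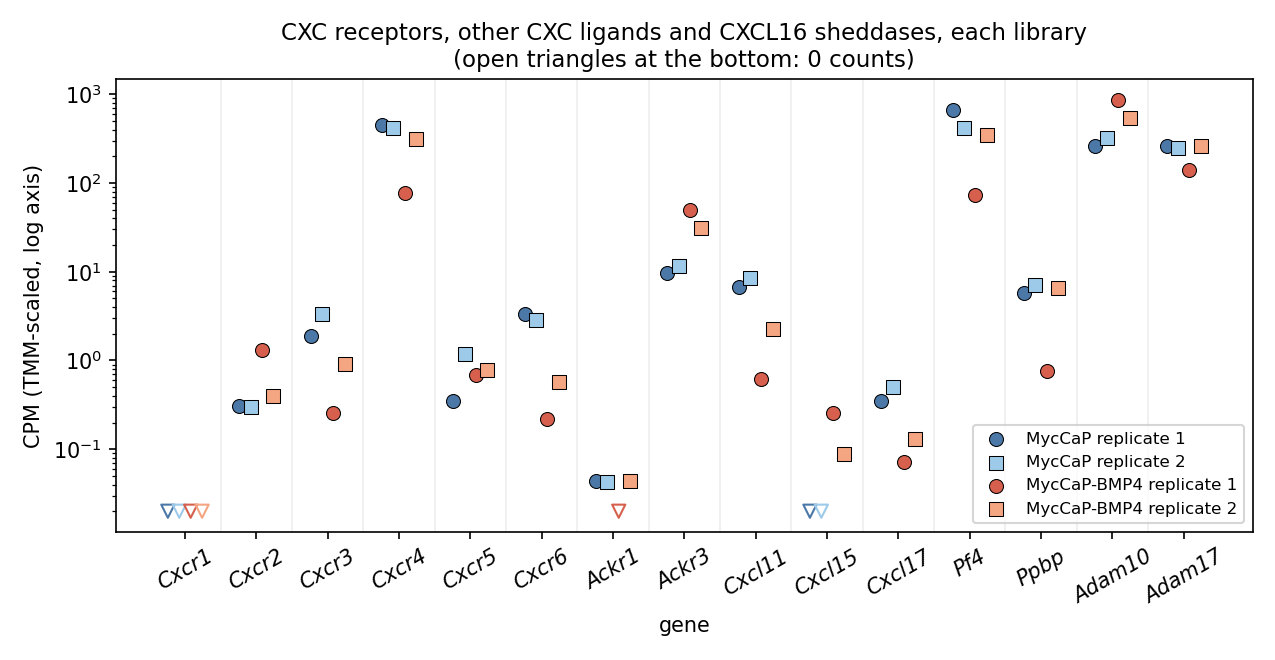
CXC receptor genes, other CXC ligand genes and the CXCL16 sheddase genes in CPM on a log axis, with 1 point per library, blue for MycCaP and red for MycCaP-BMP4, and open triangles for 0 counts. Ackr3 and Adam10 are higher in both MycCaP-BMP4 libraries, and Cxcr3, Cxcr4 and Cxcr6 lower.

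Of the 5 other CXC ligand genes, Pf4 was abundant. Pf4 and Ppbp, both in the cluster of the ELR ligands, are known as platelet products. Pf4 had 674 and 418 CPM in MycCaP and 73.4 and 352 CPM in MycCaP-BMP4, and its groups did not overlap (log2 fold change -1.36 ± 0.75, edgeR adjusted p = 0.374). Ppbp had 5.77 and 7.09 CPM against 0.760 and 6.63 CPM. Other platelet and megakaryocyte genes had few counts and did not share 1 direction. Gp1bb and Gp6 had 0 counts in all 4 libraries, Gp9 had 0 to 4 and Treml1 1 to 16. Itga2b had 20 and 9 counts in MycCaP and 52 and 54 in MycCaP-BMP4, and Gp1ba had 8 and 5 against 12 and 14. Their part in the Pf4 and Ppbp values was not tested. Cxcl15 and Cxcl17 had at most 12 counts in a library and were not tested.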

How the data were processed

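RNA of 4 samples of sorted macrophages was compared, 2 from MycCaP and 2 from MycCaP-BMP4 tumours. Per the labels' protocols, polyadenylated RNA was made into directional libraries and read in pairs. Each deposited file holds a raw count per gene, and HTSeq, STAR 2.6.0b, RSEM, Bowtie2 2.2.3 and GRCm38 (mm10) are named, without roles, per the submitters' processing notes. Annotation release and strand setting: not given in the sources used here. Lines that name no gene (14.6% to 19.4% of counted reads) were left out.

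Symbols were found for 37607 of 39179 identifiers, and coordinates come from GENCODE M21 (GRCm38). Counts were filtered with filterByExpr, scaled with TMM factors and tested with edgeR 4.0.16 (quasi-likelihood, two-sided, no covariate). CPM values use the TMM factors, and list medians per library use log2 CPM with a prior count of 2. Standard errors are the fold change divided by the square root of the F statistic. The macrophage level is the median of 15 pan-macrophage genes, each as a share of its MycCaP mean CPM. The fit was tested on simulated counts with the same spread in both groups, whereas here the MycCaP-BMP4 pair differed more than the MycCaP pair. Replicates did not agree within sampling noise (chi-square per degree of freedom 46.4 and 303), so no library was a copy. The members, lists, alternatives and named genes (all members, the other CXC ligands, receptors and sheddases, and the 4 genes with the smallest p of the NF-kB and interferon-gamma lists) were chosen with earlier results of these data known. Zmynd15 and Art3 were added after the values were seen. Promoter sequences (RefSeq) were found for 8 of 10 members, and the short motif forms were chosen after longer ones had been searched. DESeq2 1.42.0 and limma 3.58.1 (voom) were alternatives, beside other scalings and filters, the replicate number as a block, and each library left out.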

Additional observations from a re-analysis of the deposited data

How the results depend on the processing

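No gene was called by edgeR in the reported fit, with DESeq2 size factors, or with a filter of 1 CPM in 2 libraries, nor by limma-voom. The count of genes called was 65 with library size alone, 1159 with scaling on the pan-macrophage genes, 1109 with no filter on low counts and 1385 with DESeq2, and it ranged from 0 to 5753 when 1 library was left out. The count of CXC ligands called was 1 (Cxcl9) with no filter and with DESeq2, and ranged from 0 to 7 when 1 library was left out. The largest of these counts were without MycCaP-BMP4 replicate 2. The cause of these shifts was not tested.

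Members lower in both MycCaP-BMP4 libraries numbered 7, beside 29.7% of all genes, and 6 with library size alone, beside 23%. With scaling on the pan-macrophage genes they numbered 3, beside 3.86% of all genes. Members higher in both numbered 1, beside 28.9% of all genes. Under the pan-macrophage scaling they numbered 4 (Cxcl3, Cxcl5, Cxcl12 and Cxcl13), beside 69.6%. These counts were made after the data were seen. With 1 library left out the members higher numbered 1 to 2, a count for which no share of all genes was taken. A lone library separates from the other group more easily. Under the pan-macrophage scaling the log2 fold changes of Cxcl2 and Cxcl3 turned to 0.034 and 0.39. Library size alone moved the median of all genes to 0.14. With 1 library left out Cxcl12 ranged from -0.37 (without MycCaP replicate 1) to 1.5, and Cxcl13 from -0.73 (without MycCaP-BMP4 replicate 2) to 2.08. Of the member values under alternatives, 104 kept direction and side of the threshold, 12 kept direction and passed it, and 4 turned. No member passed in the reported fit, so that tally asks little and takes no account of size. Among the values that kept direction, Cxcl1 went from -1.06 to -0.046 under the pan-macrophage scaling, and Cxcl14 from -1.28 to -0.026.

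With the replicate number as a block, 2 genes and no member were called. The numbers share no stated source, and deviations of same-numbered libraries correlated at r = -0.127 across genes, so the crossed pairing was added after the data were seen: it called 689 genes and 1 member. Members with few counts, such as Cxcl5 and Cxcl12, are limited by depth.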

Other observations

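Enzymes that trim or degrade CXC chemokines were described from a list of 4. All 4 lay lower in both MycCaP-BMP4 libraries, where 29.7% of genes and 12 of the 15 pan-macrophage genes did, and none passed edgeR's test. Dpp4, a peptidase that clips the amino terminus of CXCL9, CXCL10 and CXCL12, had 4.50 and 7.59 CPM in MycCaP and 1.01 and 2.50 CPM in MycCaP-BMP4. Mmp8, a neutrophil collagenase gene that is also on the neutrophil list, had 3.37 and 3.84 CPM against 0.253 and 0.439 CPM, from 77 and 91 counts against 7 and 10. Mmp12, the macrophage elastase gene, had 241 and 293 CPM against 22.1 and 109 CPM, and Mmp9 had 631 and 580.0 CPM against 186 and 552 CPM. Divided by the macrophage level, Mmp9 was above the MycCaP mean, at 158% and 123%. The others were below it, Dpp4 at 85.9% and 55.8%, Mmp8 at 36.1% and 16.4%, and Mmp12 at 42.5% and 55.2%.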
